A study of Mus musculus with 8 samples.

Results

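The 10 genes *Nes*, *Sox1*, *Sox3*, *Sox9*, *Pou3f2*, *Pou3f3*, *Msi1*, *Prom1*, *Fabp7* and *Slc1a3*, known as markers of neural stem cells and radial glia, were followed from mouse embryonic stem cells (ESCs) to ESC-derived neural precursor cells (NPCs). They were chosen by symbol, with earlier results of these data known, and are 10 of the 26263 genes with a count. All 10 passed the low-count filter that kept 16399 genes. RNA-seq had been performed on hybrid male ESC lines from reciprocal crosses of C57BL/6 and JF1 mice, line BJE2 (genotype C57BL/6 x JF1, B/J) and line JBE6 (JF1 x C57BL/6, J/B). Each cross is thus represented by a single ESC line. ESCs were grown with LIF, BMP4 and a GSK3-β inhibitor, which hold them undifferentiated, and NPCs were collected at day 12 of *in vitro* corticogenesis, in which the same lines differentiated on Matrigel in a defined medium with B27 and a dorsomorphin homolog, an inhibitor of BMP signalling. There were 2 replicates in each of the 4 groups, hence 4 ESC and 4 NPC libraries. Nothing in the labels says that the replicates were separate cultures, so the p-values measure the spread between these libraries.

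Neural precursors line the ventricles of the developing brain, divide there, and give rise first to neurons and later to glia. At the onset of neurogenesis the neuroepithelial cells become radial glia, which keep an epithelial polarity, span the wall of the brain, and take up glutamate and bind fatty acids as astrocytes later do. Transcription factors of the SOXB1 group (*Sox1*, *Sox2*, *Sox3*) keep the precursors in a neural and undifferentiated state, *Sox9* belongs to the entry into the glial programme, and the class III POU factors *Pou3f2* and *Pou3f3* act in cortical precursors and upper-layer neurons.

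POU factors bind an octamer, and SOX and POU proteins can act side by side on DNA, so the starts of the genes were searched for short motifs. RefSeq promoters (GRCm38.p6 sequence, 250 bases before to 50 bases after the start) were found for 7 of the 10 genes, with 2 starts for *Prom1*, which makes 8 promoters. *Sox3*, *Sox9* and *Msi1* had no entry. The letters of the octamer (ATGCAAAT, either strand) occurred in 1 of the 8, that of *Sox1*, and in 1.74% of all 32851 promoters of this length. With any base at the third position (ATNCAAAT, which includes the former) they occurred also in that of *Fabp7*, hence in 2 of 8, against 4.36% of all. The window of each is shown with these 8 letters in capitals, on the plus strand of GRCm39, at chr8:12445526-12445555 for *Sox1*, where the match began at position 19 counting the RefSeq start as position 1, and at chr10:57660943-57660972 for *Fabp7*, where it began 65 bases before the RefSeq start.
Sox1: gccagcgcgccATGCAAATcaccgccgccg
Fabp7: acaagttagtcATTCAAATgattggctttt

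The pentamer CCAAT, in either orientation, occurred in 6 of the 8 promoters, those of *Sox1*, *Pou3f2*, *Pou3f3*, *Fabp7*, *Slc1a3* and the upstream start of *Prom1*, against 37.4% of all promoters. *Pou3f3* and *Slc1a3* had 3 copies each. *Pou3f2* had 2, which began 229 and 166 bases before the start. Its 250 bases upstream (chr4:22488367-22488616 of GRCm39, minus strand, 66.8% G or C) are shown with CCAAT in capitals, since *Pou3f2* is the POU gene whose RefSeq and GENCODE starts coincide.
Pou3f2: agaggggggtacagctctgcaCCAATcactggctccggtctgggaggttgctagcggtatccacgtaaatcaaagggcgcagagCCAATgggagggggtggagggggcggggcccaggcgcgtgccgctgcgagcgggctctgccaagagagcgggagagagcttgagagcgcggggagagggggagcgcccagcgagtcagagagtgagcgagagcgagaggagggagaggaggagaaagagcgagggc

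On either strand, the SOX core ACAATG and the E box CAGCTG were in none of the 8 (12.6% and 16.3% of all), and TATAAA and TAATTA were each in that of *Slc1a3* only (13.6% and 5.29% of all). The motifs were chosen after the sequences had been seen, and a match of letters does not say that a factor binds there.

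Libraries held 22537138 to 32706015 reads on genes, so that 1 read is 0.0306 to 0.0444 CPM, the count scaled to a common total of reads on genes. Levels below are CPM on these totals. Fold changes, NPCs over ESCs with both crosses averaged, come from edgeR's quasi-likelihood test with TMM scaling and Benjamini-Hochberg adjustment over the 16399 genes, and a gene is called at an adjusted p under 0.05. All 10 genes were called higher in NPCs, while 37.5% of all genes tested were. The median of their log2 fold changes was 3.02, against 0.17 for all genes tested. In all 10, each NPC library lay above each ESC library, which 46.7% of all genes also did. The plot of levels by library shows 2 kinds of gene: *Sox9*, *Pou3f2*, *Pou3f3* and *Fabp7* were below 1 CPM in all 4 ESC libraries, whereas *Nes*, *Sox1*, *Sox3*, *Msi1*, *Prom1* and *Slc1a3* were above 1 CPM in each of them. In bulk RNA, fewer cells of a type and less RNA per cell cannot be told apart.

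**Figure D1:**
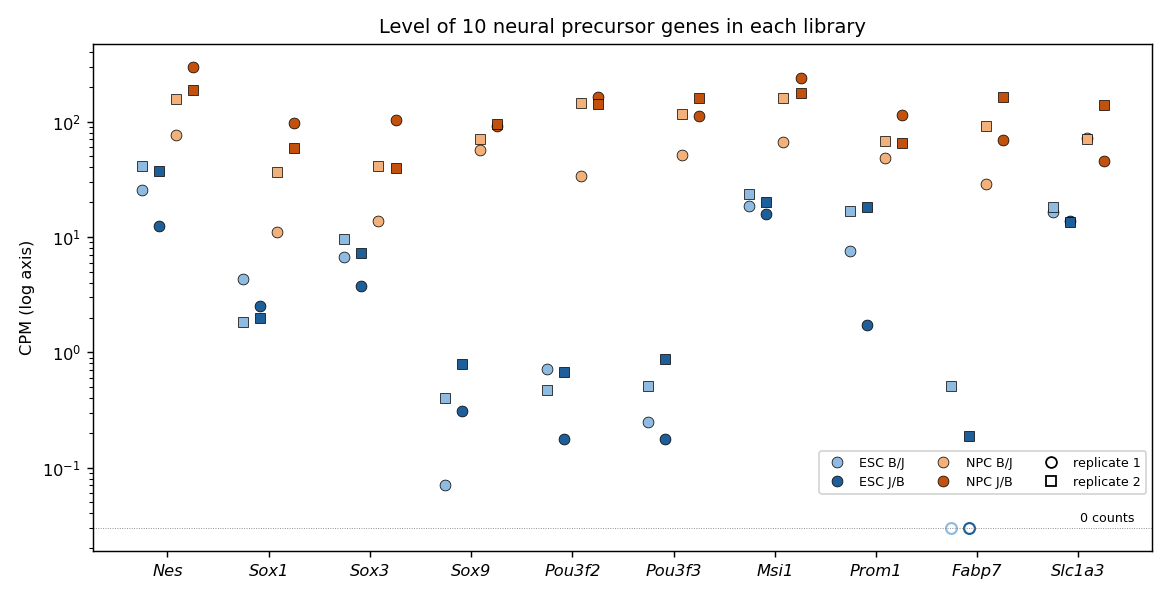
Level of each of the 10 genes in each of the 8 libraries, in CPM on a log axis (ESCs blue, NPCs orange, paler for B/J, circles for replicate 1 and squares for replicate 2, open symbols on the dotted line for 0 counts). For each gene the 4 NPC libraries lie above the 4 ESC libraries; *Fabp7* had 0 counts in 2 ESC libraries.

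*Nes* (3:87878385-87887758, plus strand of GRCm39, 4 exons) encodes nestin, the intermediate filament of dividing neural precursors. It stood at 25.3 and 40.9 CPM in B/J ESCs, 12.5 and 37.0 CPM in J/B ESCs, 75.9 and 158 CPM in B/J NPCs, and 297 and 188 CPM in J/B NPCs. The lowest NPC library, B/J replicate 1, was above the highest ESC library, and the highest was J/B replicate 1. The change was 4.25-fold (log2 2.09, SE 0.387, adjusted p = 0.00194).

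*Sox1* (8:12445295-12450126, plus strand, 1 exon) is the SOXB1 factor whose expression marks the first neuroectoderm. It was at 4.34 and 1.82 CPM in B/J ESCs, 2.53 and 1.96 CPM in J/B ESCs, 11.1 and 36.2 CPM in B/J NPCs, and 96.6 and 59.3 CPM in J/B NPCs. Both J/B NPC libraries were above both B/J NPC libraries. *Sox1* rose 11.6-fold (log2 3.54, SE 0.472, adjusted p = 0.000377). *Sox3* (X:59934972-59937036, minus strand, 1 exon), the X-linked SOXB1 gene, was at 6.73 and 9.52 CPM in B/J ESCs, 3.77 and 7.32 CPM in J/B ESCs, 13.8 and 41.1 CPM in B/J NPCs, and 104 and 39.5 CPM in J/B NPCs. A single NPC library, J/B replicate 1, stood above the other 3, and B/J replicate 1 came nearest to the ESCs. *Sox3* rose 4.75-fold (log2 2.25, SE 0.452, adjusted p = 0.00291).

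*Sox2*, the remaining SOXB1 gene, is used both by pluripotent cells and by neural precursors, and it went the other way: it fell by 2.27 on the log2 scale (SE 0.404, adjusted p = 0.00161). To set the 3 genes side by side, CPM was divided by the length of the GENCODE canonical transcript in kb. The summed level of the group was 188 to 342 CPM per kb in ESCs and 31.6 to 186 CPM per kb in NPCs, so the ranges did not overlap, although NPC J/B replicate 1 came within 2 CPM per kb of the lowest ESC library. *Sox2* made up 97.8 to 98.8% of this sum in ESCs and 62.3 to 75.0% in NPCs. *Sox3* made up 0.949 to 1.73% and then 16.0 to 27.0%, and *Sox1* 0.111 to 0.478% and then 6.83 to 10.7%. *Sox2* thus remained the highest of the 3 in each NPC library.

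**Figure D2:**
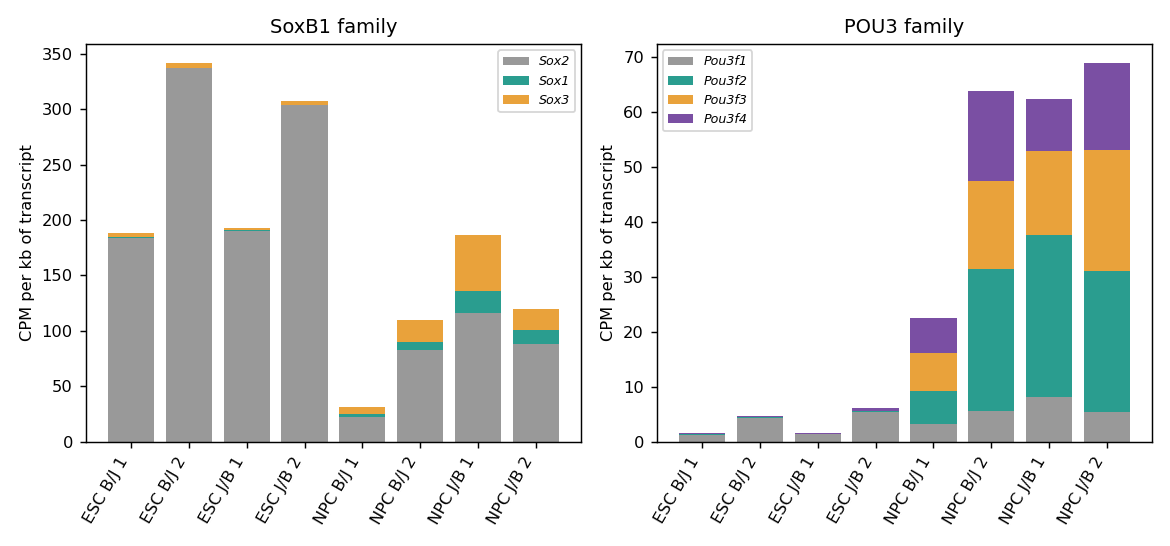
Summed level of the SOXB1 group (left) and of the POU3 family (right) in each library, in CPM per kb of the GENCODE canonical transcript, stacked by gene from 0. *Sox2* fills nearly the whole ESC bars on the left and is joined by *Sox3* and *Sox1* in NPCs, and *Pou3f1* fills most of the low ESC bars on the right and a small part of the NPC bars.

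*Sox9* (11:112673009-112678586, plus strand, 3 exons), a SOXE factor of the neural stem cell state and of gliogenesis, and also of cartilage and neural crest, went from 2, 11, 7 and 21 reads in the 4 ESC libraries (0.0712 and 0.401 CPM in B/J, 0.311 and 0.792 CPM in J/B) to 56.2 and 71.1 CPM in B/J NPCs and 90.8 and 95.1 CPM in J/B NPCs. It varied least of the 10 genes among NPC libraries, with a highest value 1.69 times the lowest. The rise was 151-fold (log2 7.24, SE 0.415, adjusted p = 1.64e-05). Without ESC B/J replicate 2 the log2 fold change was 8.06. Of the other SOXE genes, *Sox8* also rose (log2 1.36, SE 0.341, adjusted p = 0.00787), and *Sox10*, a factor of neural crest and oligodendrocytes, was not called (log2 1.13, SE 0.760, adjusted p = 0.216).

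Both POU genes came from fewer than 25 reads in each ESC library. *Pou3f2* (4:22482780-22488366, minus strand, 1 exon), which encodes BRN2, was at 0.712 and 0.474 CPM in B/J ESCs, 0.177 and 0.679 CPM in J/B ESCs, 33.7 and 144 CPM in B/J NPCs, and 164 and 143 CPM in J/B NPCs. NPC B/J replicate 1 was far below the other 3 NPC libraries, which were close together. The rise was 163-fold (log2 7.35, SE 0.600, adjusted p = 4.58e-05), and its log2 became 7.98 when ESC J/B replicate 2 was left out and 6.66 when NPC B/J replicate 2 was. *Pou3f3* (1:42734085-42742336, plus strand, 4 exons), which encodes BRN1, was at 0.249 and 0.511 CPM in B/J ESCs, 0.177 and 0.868 CPM in J/B ESCs, 50.9 and 117 CPM in B/J NPCs, and 112 and 161 CPM in J/B NPCs. Again NPC B/J replicate 1 was lowest, with J/B replicate 2 highest. It rose 169-fold (log2 7.40, SE 0.506, adjusted p = 2.65e-05), and by a log2 of 8.17 without ESC J/B replicate 2.

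Their relatives *Pou3f4* and *Pou3f1* differed: *Pou3f4* rose (log2 5.14, SE 0.537, adjusted p = 0.000118), while *Pou3f1*, which encodes OCT6, was not called (log2 0.36, SE 0.497, adjusted p = 0.540). Per kb of transcript, the family summed to 1.57 to 6.17 CPM in ESCs and 22.5 to 68.9 CPM in NPCs. *Pou3f1* supplied 81.2 to 91.6% of that sum in ESCs and 7.80 to 14.5% in NPCs. In NPCs, *Pou3f2* supplied 26.8 to 47.1%, *Pou3f3* 24.5 to 31.9% and *Pou3f4* 15.2 to 27.8%.

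*Msi1* (5:115567419-115593757, plus strand, 15 exons) encodes Musashi-1, an RNA-binding protein that represses translation in precursors. It was at 18.5 and 23.8 CPM in B/J ESCs, 15.8 and 20.2 CPM in J/B ESCs, 66.3 and 160 CPM in B/J NPCs, and 238 and 178 CPM in J/B NPCs. The 4 ESC libraries were close together, with a highest value 1.51 times the lowest, and the NPC libraries were spread 3.59-fold. *Msi1* rose 5.64-fold (log2 2.50, SE 0.281, adjusted p = 0.000167). Its relative *Msi2* had a log2 fold change of 0.73 (SE 0.247, adjusted p = 0.0297), a call that was lost on leaving out any 1 library other than NPC B/J replicate 1 or NPC J/B replicate 1 (adjusted p up to 0.0914).

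*Prom1* (5:44150962-44259395, minus strand, 28 exons) encodes prominin-1 or CD133, a protein of apical membrane protrusions in neuroepithelium and in other epithelia. It was at 7.47 and 16.7 CPM in B/J ESCs, 1.73 and 18.1 CPM in J/B ESCs, 48.8 and 68.3 CPM in B/J NPCs, and 115 and 64.9 CPM in J/B NPCs. The 2 J/B ESC replicates differed 10.5-fold, the widest gap between replicates of the 9 genes with reads in both. The rise was 4.81-fold (log2 2.27, SE 0.621, adjusted p = 0.0123). It was the least secure of the 10: without ESC B/J replicate 1 the adjusted p was 0.0511 (log2 2.05), with no low-count filter it was 0.0550, and without ESC J/B replicate 2 the log2 fold change was 3.50. *Prom2*, the other prominin gene, was not called (log2 2.03, SE 1.02, adjusted p = 0.109).

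*Fabp7* (10:57660956-57664554, plus strand, 3 exons) encodes the brain lipid-binding protein of radial glia, which carries fatty acids. It had 0 and 14 reads in B/J ESCs and 0 and 5 reads in J/B ESCs, or at most 0.511 CPM, against 29.0 and 91.1 CPM in B/J NPCs and 69.3 and 164 CPM in J/B NPCs. Its ESC reads were all in the libraries numbered 2, and it was higher in replicate 2 than in replicate 1 in both crosses of NPCs as well. The rise was 366-fold (log2 8.52, SE 0.879, adjusted p = 0.000111). Since a gene at 0 in a group has no defined fold, the log2 values of 11.6 without ESC B/J replicate 2 and 10.9 without ESC J/B replicate 2 depend on the constant added by the software and are not bounds. Of its relatives, *Fabp5* rose (log2 2.05, SE 0.197, adjusted p = 8.14e-05) and *Fabp3*, the heart form, fell by 0.83 on the log2 scale (SE 0.204, adjusted p = 0.00745), a call lost with scaling to library totals or to *Gapdh*, *Gusb* and *Tbp* (log2 as near to 0 as -0.20, adjusted p up to 0.504).

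*Slc1a3* (15:8663604-8741595, minus strand, 10 exons) encodes GLAST, the glutamate transporter of radial glia and astrocytes. It was at 16.6 and 18.1 CPM in B/J ESCs, 13.7 and 13.5 CPM in J/B ESCs, 71.5 and 71.3 CPM in B/J NPCs, and 45.1 and 139 CPM in J/B NPCs. The B/J NPC replicates were nearly equal and the J/B replicates were the lowest and highest of the 4. *Slc1a3* rose 3.79-fold (log2 1.92, SE 0.322, adjusted p = 0.00117). This was the smallest estimate of the 10, but not in each fit: without NPC B/J replicate 2, *Nes* (1.79) and *Sox3* (1.77) were below *Slc1a3* (1.93). Without ESC J/B replicate 1, *Nes* (1.81) and *Prom1* (1.84) were below it (1.95). Without NPC J/B replicate 1, *Sox3* (1.80), *Nes* (1.89) and *Prom1* (2.02) were below it (2.21). Without NPC J/B replicate 2, *Slc1a3* was at 1.42. The other glial glutamate transporter, *Slc1a2* (GLT-1), went from 5 reads over the 4 ESC libraries to 16.5 to 96.2 CPM in NPCs (log2 9.60, SE 0.766, adjusted p = 4.22e-05). With so few ESC reads that estimate depends on the constant added and is no bound: it was 9.13 to 11.8 over the alternatives, highest without ESC B/J replicate 2. *Slc1a1* was not called (log2 0.38, SE 0.671, adjusted p = 0.625).

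Divided by transcript length, *Fabp7* was highest in NPCs, at 93.6 ± 59.9 CPM per kb (mean ± SD, n = 4), followed by *Msi1* (47.6 ± 21.1), *Nes* (29.3 ± 14.9), *Sox3* (24.0 ± 18.5), *Pou3f2* (21.7 ± 10.6), *Slc1a3* (19.5 ± 9.60), *Sox9* (18.8 ± 4.33), *Prom1* (18.7 ± 7.12), *Pou3f3* (15.0 ± 6.17) and *Sox1* (10.5 ± 7.52). The ranges of each pair of neighbours in this order overlapped. In ESCs the first 5 were *Msi1* (5.80 ± 0.997 CPM per kb), *Nes* (4.72 ± 2.09), *Slc1a3* (3.68 ± 0.537), *Sox3* (3.31 ± 1.15) and *Prom1* (2.77 ± 1.96), and *Sox1* came next at 0.551 ± 0.240. *Fabp7*, *Sox9*, *Pou3f2* and *Pou3f3* were last, with means of 0.0616 to 0.185, and neighbours again overlapped. *Fabp7* thus went from the 7th to the 1st place and *Sox1* from the 6th to the 10th. Lengths are those of GENCODE and not of the refGene models on which reads were counted.

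Within each cross, the difference between the stages was called for 7 of the 10 genes in B/J (30.1% of all genes were called higher) and for all 10 in J/B (29.1%). The median log2 fold change was 2.19 in B/J and 3.92 in J/B. In B/J the 3 not called were *Nes* (log2 1.35, SE 0.535, adjusted p = 0.0633), *Sox3* (log2 1.28, SE 0.621, adjusted p = 0.114) and *Prom1* (log2 1.81, SE 0.865, adjusted p = 0.108). With a replicate block *Nes* was called (adjusted p = 0.0459), and with a block within each stage *Nes* (0.0244) and *Prom1* (0.0174) were. Both were also called when either J/B ESC library was left out of the shared estimate of spread (0.0104 to 0.0252). In J/B the same genes were at log2 2.83 (SE 0.563), 3.22 (SE 0.665) and 2.72 (SE 0.894). These sizes rested on single libraries: without ESC J/B replicate 2, *Prom1* was at log2 5.18 and *Nes* at 3.77, without ESC J/B replicate 1 *Prom1* was at 1.87, and without NPC J/B replicate 1 *Sox3* was at 2.32. *Slc1a3* in J/B went from log2 2.27 to 1.25 without NPC J/B replicate 2. In B/J, leaving out NPC replicate 2 brought *Sox3* to log2 0.32, *Nes* to 0.76 and *Sox1* from 2.44 to 1.38, and *Sox1* was at 3.24 without ESC B/J replicate 1. *Sox9*, *Fabp7*, *Msi1*, *Pou3f2* and *Pou3f3* were called in both crosses whichever library was left out. The B/J count fell to 5 without ESC B/J replicate 2 or without NPC B/J replicate 2, when *Sox1* (adjusted p = 0.0792 and 0.0861) and *Slc1a3* (0.0823 and 0.0526) were lost. *Slc1a3* was also lost without ESC B/J replicate 1 (0.0953) or NPC B/J replicate 1 (0.0571), and without the latter *Nes* (0.0457) and *Sox3* (0.0429) were gained. In J/B, *Prom1* was lost without NPC replicate 1 (0.126) or 2 (0.0597), with no low-count filter (0.114) and when only the 4 J/B libraries were fitted (0.0616).

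**Figure D3:**
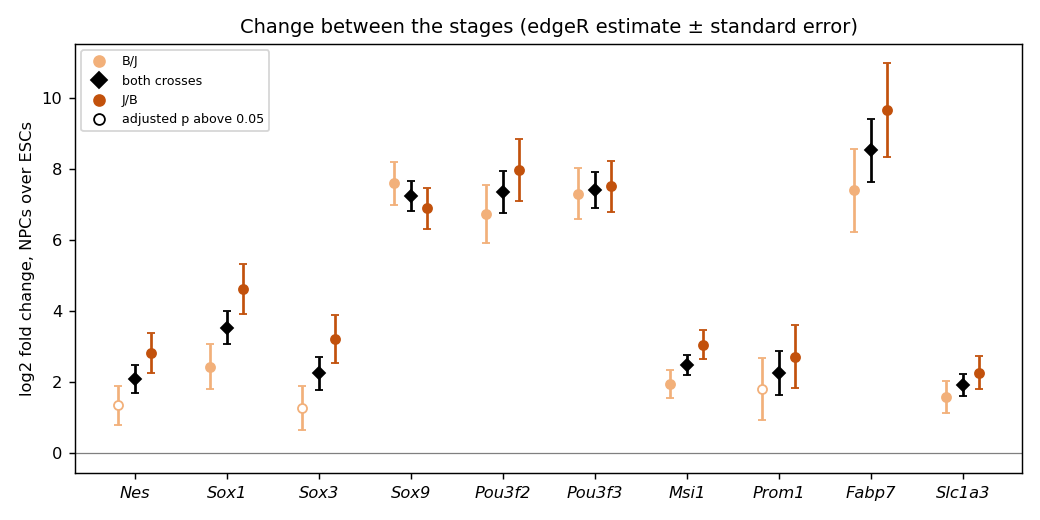
Log2 fold change of NPCs over ESCs for each gene, as edgeR's estimate with its standard error, in B/J (pale circles), in J/B (dark circles) and with both crosses averaged (diamonds); open symbols have an adjusted p above 0.05. All estimates are above 0, the 3 open symbols are *Nes*, *Sox3* and *Prom1* in B/J, and *Sox9* is the only gene with a larger estimate in B/J.

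Whether the crosses differed was tested directly. In the interaction of stage and cross, edgeR called none of the 10 genes (adjusted p = 1 for each), and none of all 16399 genes (0%). One of the 10, *Sox1*, had an unadjusted p under 0.05 (log2 2.19 larger in J/B, SE 0.878), as had 3.49% of all genes. The estimate was larger in J/B for 9 of the 10, and for 48.3% of all genes. DESeq2 called 0 of the 10 and 11 of all genes, and 3 of the 10 had an unadjusted p under 0.05 (4.31% of all). limma-voom called 0 of either, with 0 of the 10 under that limit (2.38% of all). Leaving out 1 library at a time gave 0 to 5 of the 10 under it, against 1.72 to 7.69% of all genes. A p above the threshold does not show that the crosses responded alike: the standard errors of these differences ran from 0.536 (*Msi1*) to 1.88 (*Fabp7*).

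Between J/B and B/J ESCs, edgeR called 0 of the 10 genes and 0% of all, and 0 of the 10 had an unadjusted p under 0.05 (2.11% of all). DESeq2 called 0 of the 10 and 10 of all genes, with 1 of the 10 at an unadjusted p under 0.05 (2.37% of all), and limma-voom called 0 of either, with 0 of the 10 under that limit (184 of all 16399 genes). In edgeR, a replicate block put 0 of the 10 under it (2.78% of all) and a block within each stage 2 (5.33%), with 0 of all genes called. Between J/B and B/J NPCs, edgeR called 0 of the 10 genes and 0.0061% of all, that is 1 gene. *Sox1* alone had an unadjusted p under 0.05 (log2 1.68 higher in J/B, SE 0.607), as had 6.4% of all genes. DESeq2 called 0 of the 10 and 70 of all genes, with 3 of the 10 at an unadjusted p under 0.05 (7.79% of all). limma-voom called 0 of the 10 and 1 of all genes, with 4 of the 10 under that limit (9.59% of all). All 10 estimates were higher in J/B NPCs, from log2 0.31 (*Slc1a3*) to 1.68 (*Sox1*), and 51.2% of all genes were. These 10 signs rest on the same libraries, and NPC B/J replicate 1 was the lowest for 9 of the genes. The number of the 10 with an unadjusted p under 0.05 was 0 without that library (1.83% of all genes), 5 when NPC B/J replicate 2 was left out (11.1%), and 1 (4.47%) and 3 (4.18%) on leaving out the first and the second J/B replicate of the NPCs. With a replicate block it was 4 (10.8% of all genes, 0 of which were called), and with a block within each stage 6 (18.7%, with 4 of all genes called). In the interaction those blocks gave 1 (5.59%) and 3 (10.5%), with 0 of all genes called. None of these alternatives called any of the 10 between the crosses after adjustment.

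Among the 4 NPC libraries the highest value of each gene was in a J/B library. NPC J/B replicate 1 was highest for *Nes*, *Sox1*, *Sox3*, *Msi1*, *Prom1* and *Pou3f2*, and NPC J/B replicate 2 for *Sox9*, *Pou3f3*, *Fabp7* and *Slc1a3*. *Sox3* was 0.381 times as high in J/B replicate 2 as in replicate 1, and *Fabp7* 2.36 times as high. *Sox9* (1.05 times) and *Pou3f2* (0.873 times) were close to equal in these replicates. NPC B/J replicate 1 was lowest for all but *Slc1a3*, whose lowest value was in J/B replicate 1. The highest library exceeded the lowest from 1.69-fold (*Sox9*) to 8.73-fold (*Sox1*). With 4 libraries these orders are a description and carry no test.

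**Figure D4:**
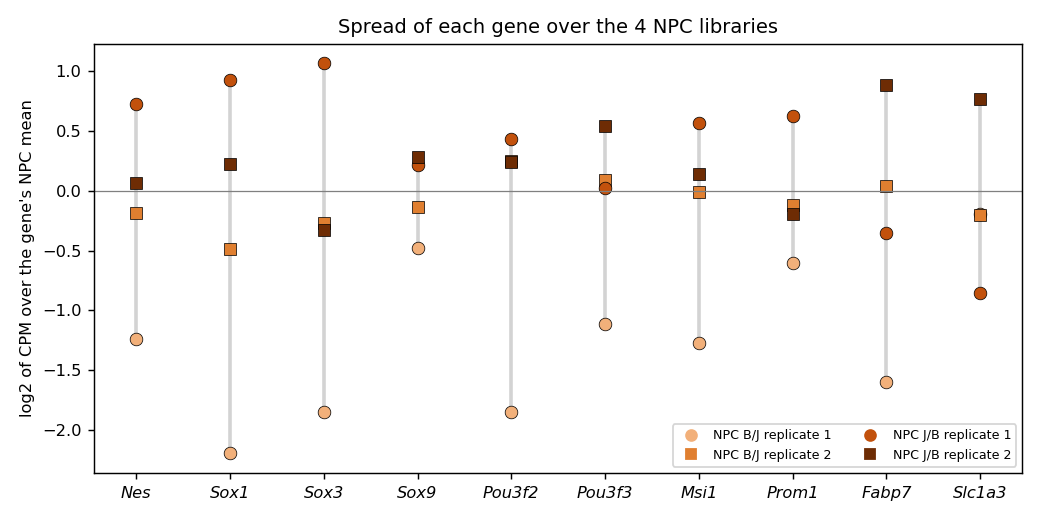
Level of each gene in the 4 NPC libraries relative to the gene's NPC mean, on a log2 scale (0 is the mean; circles replicate 1, squares replicate 2, darkening from B/J to J/B). NPC B/J replicate 1 is lowest for 9 of the 10 genes, *Sox1* and *Sox3* are among the most spread, and for *Fabp7* and *Slc1a3* J/B replicate 2 is highest.

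In ESCs, J/B replicate 1 was lowest for 6 of the 10 genes (*Nes*, *Sox3*, *Msi1*, *Prom1*, *Pou3f2* and *Pou3f3*). In each cross 8 of the 10 genes were higher in ESC replicate 2 than in replicate 1. *Sox1* was an exception in both crosses, with replicate 2 at 0.420 times replicate 1 in B/J and 0.776 times in J/B. Summed over the genes, the ESC libraries were at 79.9 and 113 CPM in B/J and 50.6 and 101 CPM in J/B.

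The labels of the stages and the other cells in the cultures were checked with marker lists. Their sums, except those of endothelium and muscle, are in the plot of marker lists. Of all genes tested, 37.5% were called higher and 31.9% lower. All 8 pluripotency markers fell (median log2 -5.82), from 4021 to 6326 CPM in ESCs to 95.9 to 270 CPM in NPCs. The 10 genes summed to 457 and 958 CPM in B/J NPCs and 1332 and 1231 CPM in J/B NPCs. In the same order of libraries, 8 neuron markers summed to 358, 1303, 1034 and 2015 CPM (281 to 376 CPM in ESCs), with 7 higher and *Stmn2* lower, the latter not with scaling to *Gapdh*, *Gusb* and *Tbp*. Astrocyte and oligodendrocyte markers were split, 3 of 8 higher and 3 lower, with sums of 31.5 to 66.4 CPM in NPCs against 47.1 to 74.3 CPM in ESCs. Those higher were *Aqp4*, *S100b* and *Mbp*, and those lower were *Aldh1l1*, *Olig1* and *Olig2*. *Gfap*, of mature astrocytes, was at 0.263 to 0.519 CPM in NPCs and 0.401 to 1.02 CPM in ESCs, and was not called.

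Most markers of cells outside the neural lineage rose with the 10 genes, as did 37.5% of all genes tested, while 31.9% were called lower. All 8 trophoblast markers rose (3517, 1941, 1990 and 1363 CPM in the 4 NPC libraries, 11.2 to 71.2 CPM in ESCs), and *Tpbpa* and *Pappa2* among them had 0 reads in each ESC library. Of the mesenchyme markers 7 of 8 rose (2003, 1527, 858 and 2107 CPM, against 7.32 to 67.9 CPM), of the cartilage markers 3 of 5 (274 to 547 CPM, against 8.97 to 31.8 CPM), of the neural crest markers 4 of 8, with *Foxd3* lower (195 to 417 CPM, against 77.8 to 107 CPM), of the endothelium markers 3 of 5, with *Pecam1* lower (286 to 931 CPM, against 32.4 to 88.2 CPM), of the muscle markers 4 of 5 (20.2 to 93.6 CPM, against 4.63 to 11.4 CPM) and of the endoderm markers all 6 tested of 8 (79.0 to 155 CPM, against 4.59 to 13.6 CPM). Some of these calls were insecure: *Gata4* lost its call without ESC B/J replicate 1 and when any 1 NPC library but B/J replicate 2 was left out (adjusted p up to 0.0694), *Ttr* without NPC B/J replicate 2 (0.0517), and *Acta2* of the muscle list without NPC J/B replicate 1 or with no low-count filter (up to 0.0672). In B/J alone, 8 trophoblast, 7 mesenchyme, 3 cartilage and 4 neural crest markers were called higher (30.1% of all genes). So were 3 endothelium, 3 muscle, 4 endoderm and 5 neuron markers. In J/B alone these numbers were 6, 6, 3, 4, 3, 3, 6 and 7 in the same order (29.1% of all genes). NPC B/J replicate 1, lowest for 9 of the 10 genes, had the lowest neuron sum and the highest trophoblast and endothelium sums. ESC J/B replicate 1, lowest for 6, had the highest pluripotency and mesenchyme sums of the ESCs. *Sox9*, *Nes* and *Prom1* are also known from cartilage, developing muscle and vessels, and epithelia, respectively. The part of these cells in the levels of the 10 genes was not tested.

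**Figure D5:**
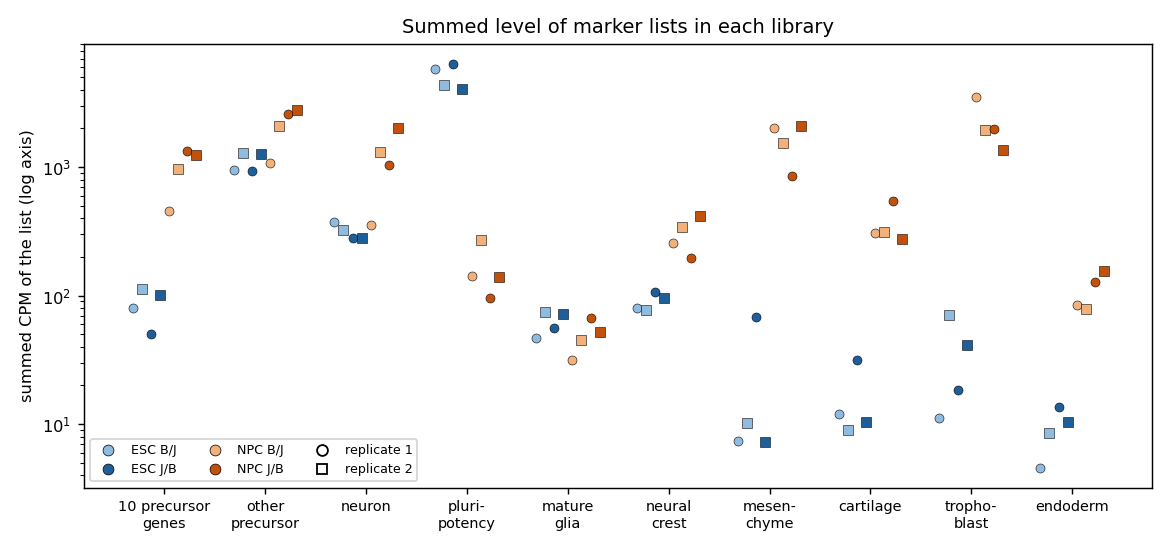
Summed CPM of the marker lists, other than endothelium and muscle, in each of the 8 libraries, on a log axis (ESCs blue, NPCs orange, paler for B/J, circles replicate 1, squares replicate 2). The 10 precursor genes, neural crest, mesenchyme, cartilage, trophoblast and endoderm lists are higher in each NPC library, the pluripotency list is lower in each, and NPC B/J replicate 1 is lowest of the NPCs for the precursor and neuron lists and highest for trophoblast.

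Of 20 other genes of neural stem cells and radial glia, 17 were called higher and 2 lower (37.5% and 31.9% of all genes tested), with a median log2 fold change of 1.64 (0.17 for all). In B/J alone 11 were called higher and 2 lower (30.1% and 25.6% of all genes), and in J/B alone 15 and 1 (29.1% and 25.3%). *Hes5*, a target of Notch signalling that keeps precursors from differentiating, rose with a log2 of 7.15 (SE 0.749, adjusted p = 0.000119). It had 0 to 10 reads in the ESC libraries, and its log2 was 6.67 to 9.99 over the 18 alternatives, highest without ESC B/J replicate 2. *Ednrb*, an endothelin receptor of radial glia and neural crest, rose with a log2 of 9.17 (SE 0.465, adjusted p = 1.2e-05), from 1, 1, 1 and 4 reads in the ESC libraries, and its log2 was 8.82 to 9.79 over the alternatives. *Nr2e1*, the nuclear receptor TLX of neural stem cells, had 0 reads in each ESC library and 0.844 to 14.9 CPM in NPCs. Pooled over libraries, this was at least 129-fold higher when 3 counts are allowed over the ESC libraries together. That bound leans on NPC J/B replicate 2, with 383 of the 596 NPC reads, against 26 and 107 in B/J and 80 in J/B replicate 1. The cortical patterning genes *Emx2* (log2 6.38, SE 0.897, adjusted p = 0.000494) and *Lhx2* (log2 5.02, SE 0.667, adjusted p = 0.000370) rose as well. *Emx2* had at most 4 reads in an ESC library, and its log2 was 5.48 to 8.62 over the alternatives, highest without ESC J/B replicate 2, while that of *Lhx2* was 4.25 to 5.71. *Vim*, a filament gene of precursors and of many other cells, rose by less (log2 1.36, SE 0.171, adjusted p = 0.000267). *Hes1* was at log2 0.46 (SE 0.176, adjusted p = 0.0446) and lost its call on leaving out any 1 library but ESC B/J replicate 2 (adjusted p up to 0.133). The 2 lower were *Sox2* and *Phgdh*, an enzyme of serine synthesis, which fell by 0.78 on the log2 scale (SE 0.182, adjusted p = 0.00570). *Pax6*, a factor of cortical radial glia, was not called (log2 1.77, SE 0.733, adjusted p = 0.0606), but was called higher in 7 of 18 alternatives, among them DESeq2, limma-voom and the scalings to library totals and to *Gapdh*, *Gusb* and *Tbp* (adjusted p down to 0.00970), but not with RLE size factors. The number called higher was 14 to 17 when 1 library was left out, and *Hes1*, *Sox21* and *Msi2* were lost in 7, 7 and 6 of the 18 alternatives. Each NPC library was above each ESC library for 15 of the 20, as for 46.7% of all genes.

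The genes whose log2 CPM ran most like the mean of the 10 over the 8 libraries were *Cracd* (Pearson's r = 0.999), *Smad3* (0.998), *B630019K06Rik* (0.997), *Gpc6* (0.997) and *Cfap300* (0.997). These values share the step between the stages and the library depths, and they carry no test. Of the 10 genes themselves, *Pou3f3* (0.994) and *Pou3f2* (0.993) were nearest to that mean, of which each is a part, and *Slc1a3* (0.882) was farthest.

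Several of the genes overlap another annotated transcript. By GENCODE exons, *Pou3f3* shares 304 bases with *Pantr1* on the opposite strand and 264 bases with *Gm20646* on its own, *Sox9* shares 542 bases with *BC006965*, *Pou3f2* 449 bases with *Gm57099* and *Sox3* 361 bases with *Gm14662*, each on the opposite strand. *Sox1* shares 86 bases with the microRNA gene *Gm54672* on its own strand. Mapping was set for stranded libraries, but the strand setting of the counting was not given in the sources used here, so reads of these pairs may not be told apart. *Pantr1* itself had 4.19 to 11.3 CPM in NPCs, and *Pou3f3* 50.9 to 161 CPM.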

How the data were processed

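The authors deposited 1 table of read counts per library, whole numbers for each gene symbol. Per their methods and processing notes, paired reads were mapped with TopHat2 to an mm39 genome masked at JF1 variants with UCSC refGene models, kept in proper pairs, and counted with HTSeq. Versions and the strand setting of the counting were not given in the sources used here, nor which library was made with which of 2 kits and run on which of 2 instruments. Reads in no gene (5.76 to 10.9%) or ambiguous (0.355 to 0.554%) were left out.

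The 8 libraries were fitted in 4 groups with edgeR 4.0.16 in R 4.3.3 (filterByExpr with a minimum count of 10, TMM, robust glmQLFit and glmQLFTest, Benjamini-Hochberg). The TMM factors were 0.820 to 0.885 in ESCs and 1.14 to 1.21 in NPCs. Replicates differed by far more than counting noise (chi-square over its degrees of freedom of 60.3 to 84.7). Scripts were tested on simulated data. DESeq2 1.42.0, limma-voom 3.58.1, other scalings and filters, the libraries compared alone, a replicate block and leaving out each library were the alternatives. The 10 genes were given in each library, and other genes only from the lists or as the 5 most alike in profile (log2 CPM with a prior count of 2). Genes and lists were chosen with earlier results of these data known. Positions and lengths are from GENCODE vM39, and promoters from RefSeq, placed on GRCm39 by exact match.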

Additional observations from a re-analysis of the deposited data

Results flagged for a closer look

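*Pou3f2* in NPC B/J replicate 1 stood apart from the other NPC libraries, at 33.7 CPM against 143 to 164 CPM, with a gap that took up most of the range of the 4 libraries. It was the single such value among the 20 sets of 4 libraries examined (10 genes in ESCs and in NPCs), and chance gives about 1 in 20. The same library was lowest of the NPCs for 8 of the other 9 genes.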

How the results depend on the processing

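All 10 genes stayed higher in NPCs in every alternative run, and with both crosses averaged each was called in all of them, except *Prom1* in the 2 cases given with it. Leaving out 1 library at a time gave counts of 9 to 10 for both crosses, 5 to 9 for B/J alone and 9 to 10 for J/B alone; the number of genes tested changed as well, and a lone library is assumed to vary like the others. Among the 20 other precursor genes the number called lower went from 2 to 1, *Sox2*, when a 2-fold change was asked for, with scaling to library totals, and with scaling to *Gapdh*, *Gusb* and *Tbp*, where *Phgdh* was lost; the number called higher ran from 14 to 18 against 17. Scaling moved the median of all genes from a log2 of 0.17 to 0.65 (totals) or 0.80 (the 3 genes), and the share of calls that were higher from 54.0% to 70.1% and 75.0%. In B/J, *Nes* was called in 9 of 19 alternatives and *Prom1* in 6. Same-numbered replicates deviated together within a stage (correlations over genes of 0.518 in ESCs and 0.587 in NPCs) but hardly across stages (0.0489 to 0.0915). The numbers were therefore not taken to pair ESC with NPC libraries. Within a stage, where the crosses were compared, the main fit ignores what same-numbered libraries share. With a replicate block, the number called was 10 over both crosses, 8 in the B/J cross, where *Nes* was gained, and 10 in the J/B cross; with a replicate block within each stage, added after seeing the data, it was 10, 9 (*Nes* and *Prom1* gained) and 10. Having 2 libraries per group limit the tests of the crosses, and ESC levels of fewer than 25 reads carry large counting errors.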
